A study of Mus musculus with 4 samples.

Results

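The stretch of mouse chromosome 1 that holds Cpa6 and Prex2 was examined in a TrAEL-seq replication profile of mouse embryonic stem cells. Its members are the 113 windows of 100 kb, spaced 25 kb, that start at 9500001 to 12300001 in GRCm38, out of 109033 windows in the whole table. The stretch was chosen with the measured values in view, because the profile climbs between 10.775 and 10.975 Mb far more in Snf2h KO than in WT. Differences between genotypes here are therefore descriptions. A test across all windows of the genome is given only as counts of calls, beside the same counts for all windows. Cells of the line 129S6/SvEvTac were grown in duplicate with LIF and serum, as 2 wild-type (WT) libraries and 2 libraries of the genotype SNF2KO (Snf2h KO). Snf2h is the ATPase of the ISWI chromatin remodelling complexes, which slide and space nucleosomes. Both genotypes share the line and the medium, and whether the KO cells are a single clone is not given in the sources used here. The assay reads DNA ends and no RNA, so neither the loss of Snf2h nor the stem cell identity could be checked on marker genes. For WT replicate 2 the labels and the column name give different index sequences.

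TrAEL-seq captures free DNA 3′ ends, which lie on opposite strands at forks that move left and forks that move right. The strand imbalance of these ends therefore follows the prevailing direction of replication forks. In mammalian cells forks start within broad initiation zones, where fork direction turns abruptly, and converge over wider stretches, where it turns back gradually. Large transcribed genes are commonly replicated by forks that enter from outside the gene. ISWI remodellers are known for keeping nucleosomes regularly spaced around bound factors and for helping replication through compact chromatin. In the deposited table the imbalance, called polarity here, is given in percentage points on a scale bounded at -50 and 50. The strand counted as positive is not stated, so the words rise and fall below describe only the course of the values with increasing coordinate, and no rise is assigned to initiation.

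The region runs from 9.5 to 12.4 Mb and overlaps 15 protein-coding genes of the RefSeq table of GRCm38.p6. Cpa6 (gene ID 329093, chr1:10295791-10720053) encodes carboxypeptidase A6, a secreted enzyme of the extracellular matrix that trims C-terminal residues from peptides. Prex2 (gene ID 109294, chr1:10993273-11303683) encodes an exchange factor that activates the small GTPase Rac. As background, the genes are transcribed away from each other, Cpa6 to the left and Prex2 to the right. Both are large. Cpa6 spans 424 kb and Prex2 310 kb, and 98.6% and 97.6% of 20661 autosomal protein-coding genes are at most as long. The gap between them, chr1:10720054-10993272, is 273 kb long and holds no protein-coding gene, only the pseudogenes Gm5522 and Gm28659. The median of 18547 such autosomal gaps is 16.1 kb, and 94.3% are at most as long as this one. The rise named in the choice of the region lies wholly inside this gap, starting 54.9 kb beyond the end of Cpa6 and stopping 18.3 kb before Prex2. These ends are window midpoints. The windows themselves, and the neighbours averaged with them in the running mean used below, reach into Prex2 on the right and Cpa6 on the left. Exon positions were not used here.

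All 113 windows had a value in every library and none of these values was at the bound of the scale. The SD of polarity over autosomal windows, a measure of each library's amplitude, ranged from 12.8 to 14.6 points in WT, and was 19.5 points in KO replicate 1 but 14.5 points in KO replicate 2. The depth of the libraries is unknown because the table holds no counts. Inside the region the signed difference between the WT replicates averaged 0.672 points, with an SD of 3.23 points over windows and a largest absolute difference of 8.58 points. Between the KO replicates the signed difference averaged 0.405 points, with an SD of 6.72 points and a largest absolute difference of 15.8 points. Across genotypes the SD of the difference was 7.85 to 10.8 points inside the region. Over all autosomal windows the SDs were 5.06 points between WT replicates, 8.61 points between KO replicates and 7.30 to 9.55 points across genotypes. Over the genome the KO replicates thus differed about as much as libraries of different genotype. Pearson's r over the 113 windows, which overlap and share reads, was 0.976 between WT libraries, 0.954 between KO libraries and 0.839 to 0.855 across genotypes.

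**Figure D1:**
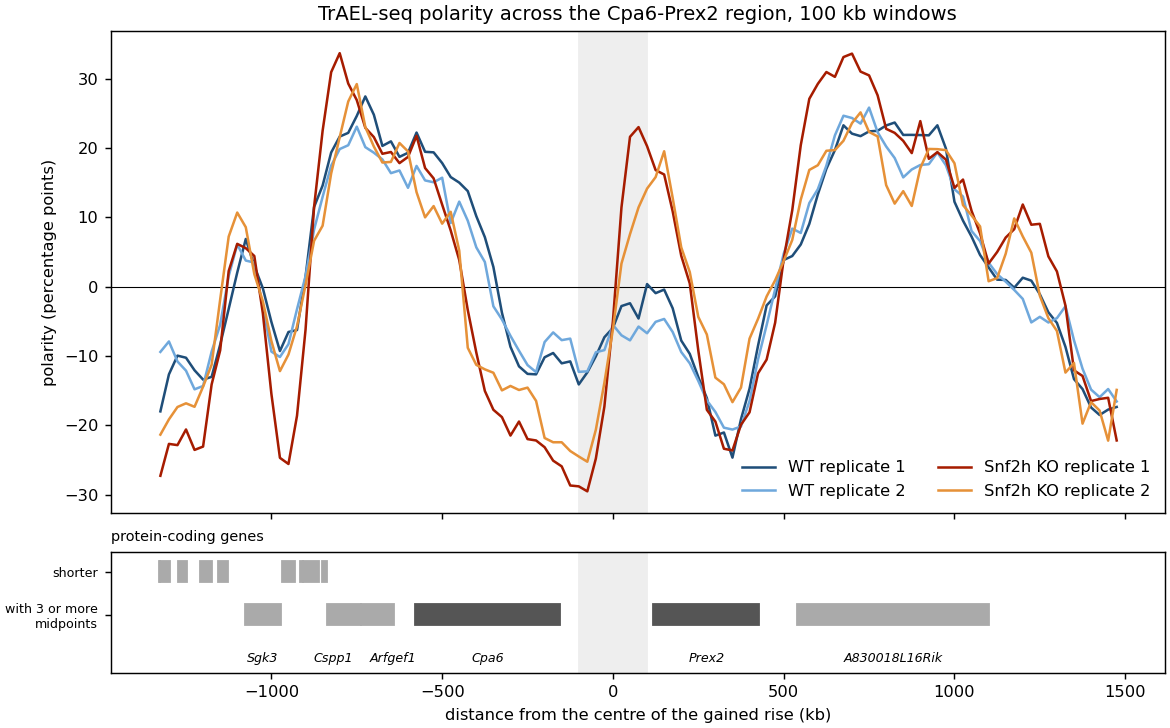
Polarity in percentage points (y axis) of each library in 100 kb windows, against the distance of the window midpoint from the centre of the gained rise in kb (x axis), with protein-coding genes below and the gained rise shaded. Only the KO libraries climb above 0 by more than 1 point in the gap between Cpa6 and Prex2 and over the near side of Prex2, to 23.0 and 19.5 points, whereas the steep climbs to the left and right are present in all 4 libraries.

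The gained rise was measured on a running mean of 5 windows. Where a pair of values is given for a genotype, replicate 1 comes before replicate 2, and positions in Mb are window midpoints. Between 10.775 and 10.975 Mb it was 10.1 points in WT replicate 1 and 3.85 points in WT replicate 2. In KO replicate 1 it was 47.1 points, and in KO replicate 2 it was 37.0 points. Both KO libraries thus lay far above both WT libraries, and a shallow upward course was present in WT as well. The WT mean was 6.96 ± 4.41 points and the KO mean 42.1 ± 7.16 points (SD, n = 2 each), so that they lay 35.1 points apart, against a pooled replicate SD of 5.94 points. In units of each library's own SD of polarity the rise was 0.689 and 0.300 in WT against 2.42 and 2.55 in KO. The KO libraries, which differ in amplitude over the genome, came close to each other on that scale.

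Single windows trace how the gap between the genes turns. At 10.8 Mb polarity was -12.4 and -12.2 points in WT against -29.5 and -25.3 points in KO. At 10.875 Mb, the centre of the rise, all libraries met: -5.95 and -5.52 points in WT against -4.96 and -6.16 points in KO. At 10.95 Mb polarity was -4.60 and -5.76 points in WT against 23.0 and 11.4 points in KO. The KO libraries were therefore the lower ones to the left of the centre and the higher ones to the right of it. The window at 10.95 Mb held the largest positive difference of the region, 22.4 points (WT -5.18 ± 0.820, KO 17.2 ± 8.19; SD, n = 2 each). At 11.025 Mb, which lies over the first part of Prex2, polarity was -0.425 and -4.66 points in WT against 16.2 and 19.5 points in KO. KO replicate 1 peaked earlier than KO replicate 2, on the running mean at 10.975 and 11 Mb, with 19.6 and 14.7 points. On that running mean both WT libraries had their own weak maximum at the same 2 positions, 10.975 Mb in replicate 1 and 11 Mb in replicate 2, at -1.60 and -5.75 points. The steepest upward step of 25 kb between the 2 genes was, on the running mean, at 10.8625 Mb in both KO libraries, with 10.2 and 6.57 points, and at 10.8375 Mb in both WT libraries, with 2.26 and 1.06 points. Between single windows it lay at 10.8875 Mb in both KO libraries, with 16.4 and 9.49 points, and the WT libraries did not share a position, with 4.97 points at 10.9625 Mb in replicate 1 and 3.64 points at 10.8625 Mb in replicate 2.

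The sign of polarity shows the same turn without regard to amplitude. On the running mean WT replicate 1 was below 0 from 10.53 to 11.36 Mb, a stretch of 824 kb, and WT replicate 2 from 10.52 to 11.35 Mb, a stretch of 838 kb. The margin was small in WT replicate 1, which came up to -1.60 points at 10.975 Mb, where its single window was at 0.372 points. Of negative stretches on the autosomes, 10.8% and 9.89% were at least as long in the respective library, with medians of 306 and 301 kb. In KO the stretch was broken by a positive interval, from 10.88 to 11.09 Mb in replicate 1 and from 10.90 to 11.11 Mb in replicate 2. The negative stretch left of that interval was 447 and 467 kb long in KO, and the one right of it 268 and 232 kb. The distance between successive upward sign changes around the gap was 1398 and 1392 kb in WT, against autosomal medians of 684 and 677 kb. In KO it was divided into 900 and 478 kb in replicate 1 and 923 and 442 kb in replicate 2, with autosomal medians of 709 and 649 kb.

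**Figure D2:**
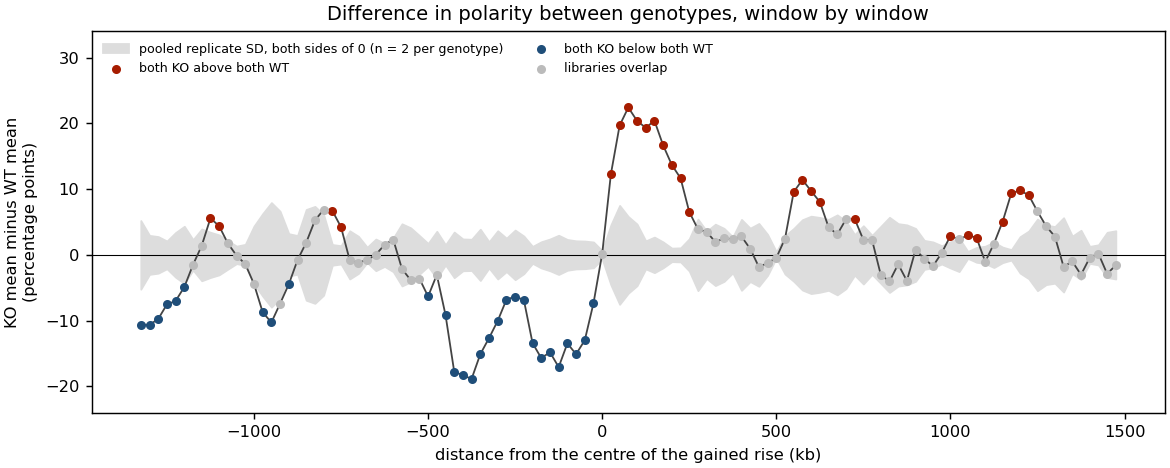
KO mean minus WT mean in percentage points (y axis) in each of the 113 windows, against the distance from the centre of the gained rise in kb (x axis), with the pooled replicate SD as a grey band. The difference runs from -18.8 points over Cpa6 through 0.178 points at the centre to 22.4 points beside Prex2.

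The change in level reached over both genes. Over Cpa6 mean polarity in its 17 window midpoints was 4.40 and 2.44 points in WT against -7.04 and -6.10 points in KO. Both KO libraries were below both WT libraries, and below 0. The WT mean of 3.42 ± 1.38 and the KO mean of -6.57 ± 0.665 points (SD, n = 2 each) gave a difference of -9.99 points against a pooled replicate SD of 1.08 points. At the left end of Cpa6, at 10.3 Mb, the libraries overlapped, with 22.2 and 17.4 points in WT against 21.8 and 13.6 points in KO. At its right end, at 10.7 Mb, they had parted to -9.57 and -6.60 points in WT against -25.1 and -22.5 points in KO. The largest negative difference of the region lay inside Cpa6, at 10.5 Mb, where polarity was 7.14 and 3.56 points in WT against -15.0 and -11.9 points in KO. The difference there was -18.8 points, against a pooled replicate SD of 2.37 points. The running mean passed 0 inside Cpa6 in every library, at 10.53 and 10.52 Mb in WT and at 10.44 and 10.43 Mb in KO, so that the crossing lay farther to the left in KO.

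Over Prex2, in 13 window midpoints, mean polarity was -12.4 and -13.3 points in WT against -7.33 and -2.0 points in KO. Both KO libraries were above both WT libraries, by 8.17 points in the mean (WT -12.8 ± 0.673, KO -4.66 ± 3.77; SD, n = 2 each; pooled replicate SD 2.71). The genotypes parted at the side of Prex2 next to the gap, at 11 Mb, with -0.938 and -5.08 points in WT against 16.8 and 15.8 points in KO. At the far side, at 11.3 Mb, they overlapped, with -8.49 and -10.5 points in WT against -12.5 and -4.63 points in KO. The fitted slope of polarity across the gene was -5.77 and -4.46 points per 100 kb in WT against -13.5 and -10.4 points per 100 kb in KO. Across Cpa6 the slopes were -10.1 and -8.08 points per 100 kb in WT against -12.5 and -9.54 points per 100 kb in KO, so KO replicate 2 lay between the WT libraries there.

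The remaining protein-coding genes with at least 3 window midpoints lie farther from the gap. Their libraries overlapped over Arfgef1, over Sgk3 and over A830018L16Rik. Arfgef1, which encodes a guanine nucleotide exchange factor for Arf GTPases at the Golgi, had 23.4 and 18.6 points in WT against 20.8 and 19.8 points in KO. Sgk3, a protein kinase gene related to Akt, had -0.952 and -3.04 points in WT against -6.81 and -2.35 points in KO. A830018L16Rik, at 562 kb the longest gene of the region, had 17.0 and 16.6 points in WT against 22.2 and 16.4 points in KO. Over Cspp1, whose product sits at centrosomes and spindle poles, the KO libraries were the higher pair, with 22.0 and 20.2 points in WT against 30.2 and 23.5 points in KO. That difference was 5.76 points against a pooled replicate SD of 3.49 points. The lncRNA gene 2610203C22Rik, near the left edge, also held 3 midpoints, and in all of them both KO libraries were below the WT pair, at 9.6 Mb for example with -9.95 and -10.8 points in WT against -22.9 and -17.4 points in KO.

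The other protein-coding genes of the region, each under 50 kb long, all lie in its left part. They include Rrs1, needed for ribosome assembly, Cops5, the catalytic subunit of the COP9 signalosome, and Mcmdc2, an MCM-related gene of meiotic recombination. Vcpip1 encodes a deubiquitinase and Mybl1 a transcription factor of male meiosis. Adhfe1, Vxn, Tcf24 and Ppp1r42 complete the list. All of these genes lie left of the peak of the 4-library mean at 10.125 Mb, whereas no protein-coding gene other than Cpa6, Prex2, A830018L16Rik and Arfgef1 extends to the right of 10.15 Mb.

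The gained rise was set beside the other swings of the same region, taken where the mean profile of all 4 libraries turned by at least 10 points. The rise from 11.2 to 11.6 Mb, which starts inside Prex2 and enters A830018L16Rik, was 42.9 and 43.3 points in WT against 52.0 and 35.8 points in KO. On the deposited scale the libraries overlapped and the means differed by 0.855 points, against a pooled replicate SD of 8.09 points. In library SDs this rise was 2.93 and 3.37 in WT against 2.67 and 2.47 in KO, so that both KO libraries were below both WT libraries. The rise from 9.9 to 10.125 Mb, over the Mcmdc2 to Cspp1 genes, was 29.6 and 27.4 points in WT against 44.5 and 31.7 points in KO. In library SDs it was 2.03 and 2.13 in WT against 2.29 and 2.18 in KO, so that the KO libraries exceeded WT by little on that scale. The first rise, from 9.6 to 9.8 Mb, was smaller in all libraries, with 14.3 and 13.4 points in WT against 26.3 and 23.7 points in KO. It was also larger in KO in library SDs, with 0.976 and 1.04 in WT against 1.35 and 1.63 in KO.

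All 4 falls of the region were deeper in both KO libraries than in WT on the deposited scale, those on either side of the gained rise among them. The falls on either side share its ends at 10.775 and 10.975 Mb, on which the region was chosen. KO minus WT was -14.7 and 20.4 points at these ends, so the differences in those falls are not separate from the rise. From the peak at 10.125 Mb to 10.775 Mb, a span of 650 kb that covers Arfgef1 and Cpa6, polarity changed by -35.8 and -30.4 points in WT against -54.4 and -47.5 points in KO. KO minus WT was -17.8 points, against a pooled replicate SD of 4.42 points, and in library SDs the falls were -2.45 and -2.37 in WT against -2.80 and -3.27 in KO. From 10.975 to 11.2 Mb, mostly inside Prex2, polarity changed by -18.9 and -13.1 points in WT against -40.4 and -26.8 points in KO. That difference was -17.6 points against 7.41 points, and without KO replicate 1 it was -10.8 points. The fall from 9.8 to 9.9 Mb was -7.18 and -9.19 points in WT against -20.6 and -12.8 points in KO. The fall from 11.6 to 12.3 Mb was -39.6 and -38.9 points in WT against -47.9 and -41.1 points in KO, and in library SDs it was -2.70 and -3.03 in WT against -2.46 and -2.83 in KO, where the libraries overlapped. The genotypes were closer at the turning points beyond the falls that flank the gained rise, where KO minus WT was 3.17 and 2.85 points. At 10.125 Mb the running mean was 24.2 and 20.6 points in WT against 26.9 and 24.2 points in KO. At 11.2 Mb it was -20.5 and -19.1 points in WT against -20.8 and -13.1 points in KO.

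**Figure D3:**
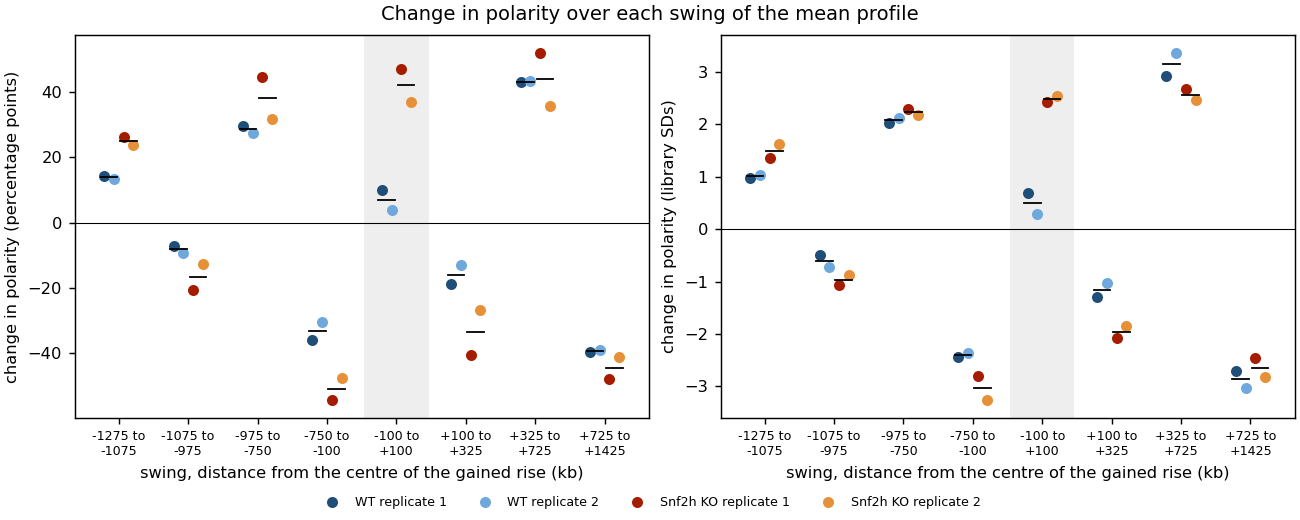
Change in polarity over each swing of the region's mean profile, in percentage points (left) and in units of each library's SD (right), with one point per library, a bar at each genotype mean and the gained rise shaded. On both scales the gained rise, for which the region was picked, shows the widest distance between the WT and KO points, 10.1 and 3.85 against 47.1 and 37.0 points. That it is the widest follows from this choice.

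Counts of windows put these values against the whole table. Of the 113 windows, 26 had both KO libraries above the WT pair and 28 had both below it. Over 94694 autosomal windows 22.2% were above and 22.5% below, so that 44.6% were separated in either direction, against 47.8% (54 windows) here. Separation by at least 5 points was seen in 27 windows (23.9%), against 13.4% of autosomal windows. With each library divided by its SD, 71 windows (62.8%) were separated, 26 higher and 45 lower in KO, against 45.1% of autosomal windows. The region was chosen on some of these windows, so nothing is read from these shares. A run of 18 successive windows from 10.425 to 10.85 Mb had both KO libraries below, with a mean KO minus WT difference of -12.9 points. A run of 10 windows from 10.9 to 11.125 Mb had both above, by 16.3 points. Both runs take in windows the region was chosen on, and run lengths elsewhere in the genome were not measured. Neighbouring windows overlap and do not count as separate observations. The other runs of more than 2 windows lay farther out. Both KO libraries were below in 6 windows from 9.55 to 9.675 Mb, with a mean difference of -8.40 points, and above in 4 windows from 11.425 to 11.5 Mb, with 9.69 points. They were also above in 4 windows from 12.025 to 12.1 Mb, with 8.33 points, around the lncRNA gene Gm30974. At 12.05 Mb polarity was -0.155 and -0.473 points in WT against 8.29 and 9.85 points in KO.

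No single window of the region passed the test across the genome. In limma with Benjamini-Hochberg adjustment over 23672 autosomal windows that do not overlap, 13 windows (0.0549%) had an adjusted p-value under 0.05, and 0 of the 29 tested in the region. At an unadjusted p-value under 0.05 there were 8 of 29, 4 higher and 4 lower in KO, against 12.2% of all windows. Since the region was chosen on this contrast, nothing is read from that share. The test is of levels in single windows and not of the rise between them. A fit blocked on replicate number called 4 windows of the region, against 2.66% of all windows. The count in the region stayed at 0 over overlapping windows (0.0760% of all windows passed), with the X chromosome included (0.0438%), on an atanh scale (where no window of the genome passed), without WT replicate 1 (0.0338%) and without WT replicate 2 (0.0296%). It was 1 at an adjusted p-value under 0.1 (0.228%), 2 after dividing each library by its SD (0.380%) and 3 with trended, robust variances (1.28%). Leaving out KO replicate 1 gave 4 (5.79%) and leaving out KO replicate 2 gave 9 (20.2%).

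The size of the gained rise was placed among 93428 window pairs 200 kb apart on the autosomes, measured in the same way. The difference of 35.1 points between genotypes was reached or exceeded by 18 of them (0.0193%), and the middle 99% of pairs lay between -18.5 and 20.4 points. Among changes at least 1 Mb apart it ranked at place 5, on the deposited scale and in library SDs alike. This rank follows from the choice of the region. Within single libraries the rise was unremarkable in WT and steep in KO. In WT replicates 1 and 2, 76.8% and 66.2% of the window pairs had a smaller change, and in KO replicates 1 and 2, 97.9% and 98.4%.

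**Figure D4:**
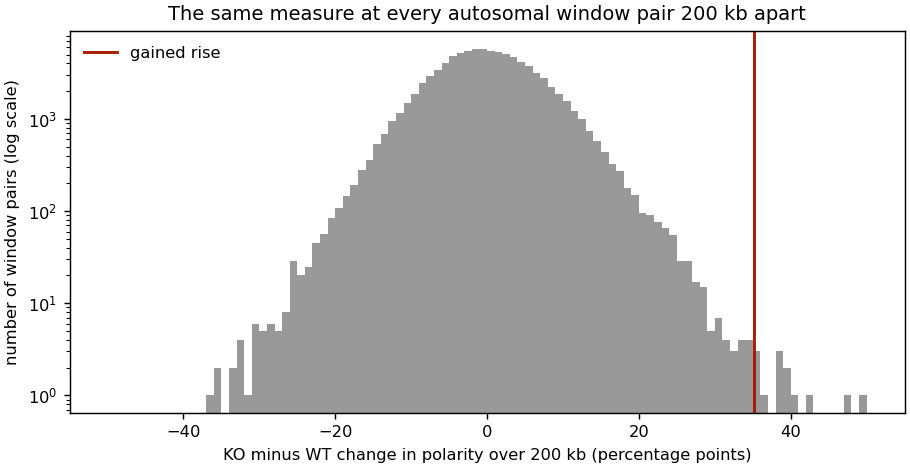
Number of window pairs (y axis, log scale) by the KO minus WT change in polarity over 200 kb in percentage points (x axis), from 93428 autosomal pairs, with the gained rise as a line. The bars end at 50 points, and the few pairs above that value, all beyond the gained rise, are not drawn. The rise, at 35.1 points, lies in the far right tail, from which the region was picked.

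The gap between Cpa6 and Prex2 was also compared with the other gaps between protein-coding genes. Among 1336 autosomal gaps of at least 200 kb, the change in polarity from the first to the last window midpoint in the gap was 9.55 and 2.43 points in WT against 45.9 and 36.7 points in KO for this one. The difference of 35.3 points was the largest of the 1336, which follows from the choice of the region on nearly the same windows. Over all of them the median difference was -2.47 points, and 90% of the gaps lay between -14.0 and 10.5 points. Both KO libraries were above both WT libraries in 14.7% of these gaps and below both in 32.0%, and the Cpa6-Prex2 gap belongs to the former.

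Finally, the genes whose surroundings looked most like those of the members were sought on other chromosomes. For each of 18971 genes the WT and KO mean polarity in 41 windows around the gene midpoint gave 82 values, which overlap and come from the same libraries. Around Prex2 the highest Pearson's r was with Polr3d on chromosome 14 (0.904), then Myo5a on chromosome 9 (0.892) and Gstp1 on chromosome 19 (0.891). The median over all genes was 0.118 and the 99th percentile 0.782. Around Cpa6 it was with Catsperb on chromosome 12 (0.932), Cyp2a4 on chromosome 7 (0.924) and Sh3rf3 on chromosome 10 (0.919), with a median of -0.231 and a 99th percentile of 0.820. The 3 values for each member lie close together and do not single out 1 gene.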

How the data were processed

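TrAEL-seq libraries of 2 WT and 2 Snf2h KO cultures were used. Per the submitters' processing notes, reads were handled with Trim Galore 0.6.5 and Bowtie2 2.4.1. Per the file headers, the authors aligned them to GRCm38 with an rRNA sequence and deduplicated each library separately. The deposited values are a score, a signed strand imbalance in percentage points. The program that made them, the sign of the strands, any read minimum and the depth are not given in the sources used here.

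The members and lists were chosen with earlier results of these data known. Running means covered 5 windows of the region. The window test used lmFit and eBayes of limma (version 3.58.1, R 4.3.3; tested on simulated data) on 23672 autosomal windows 100 kb apart with a value in all libraries, with a threshold of 0.05. Replicate error is the SD over 2 libraries per genotype, which measures only the spread between these cultures. Genes named were Cpa6, Prex2, all protein-coding genes of the region, and the 3 genes on other chromosomes most like each member, at most 1 per 2 Mb. Profiles were centred on gene midpoints and not on 5′ ends, because the gene table used gives no strand. Python 3.11.15, numpy 2.4.6 and pandas 2.3.3 were used.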

Additional observations from a re-analysis of the deposited data

How the results depend on the processing

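Of 31 alternatives to 7 results, other than leaving out a library, 22 left the value within the replicate spread or the count within 1.5 times. None reversed a direction, which was not assessed for the counts of windows. For the other results the choice of the region on this contrast made a reversal unlikely from the start. The difference between genotypes in the gained rise was 28.3 points with a running mean of 9 windows and 24.7 points with ends 50 kb inwards, against 35.1, both of which measure less of the rise. The fall on its left was -9.59 points with standardised libraries (put back to points with the mean SD), against -17.8. Separated windows numbered 27 with a minimum of 5 points, against 54, where 13.4% of autosomal windows met that minimum. They numbered 13 when only the 29 windows 100 kb apart were used, which follows from the smaller set, of which 44.8% were separated against 47.8%. Windows of the region called by limma were 0 (0.0549% of all windows passed), but 2 after standardising (0.380%) and 3 with trended, robust variances (1.28%). They were 4 with the replicate block (2.66%) and 1 at an adjusted p under 0.1 (0.228%). The deviations of same-numbered libraries correlated at 0.241, and at 0.0158 after standardising, and nothing in the labels says that a number marks a shared culture. If the running mean also used windows beyond the region, the lowest point right of the gained rise would move from 11.2 to 12.35 Mb, past the rise from 11.2 to 11.6 Mb, and would no longer bound the same fall. The use of windows of the region alone was settled after seeing the data.

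Leaving out each library in turn gave 30.1 to 40.2 points for the gained rise, -21.3 to -14.4 for the fall on its left, -24.4 to -10.8 for that on its right, -11.0 to -9.01 over Cpa6 and 5.50 to 10.8 over Prex2. Without KO replicate 1, 4 windows of the region were called, and without KO replicate 2, 9 were, where 5.79% and 20.2% of all windows passed. Without either WT library the count was 0. These fits assume that the lone library varies like the other genotype. The cause was not tested. Depth is unknown and limits every value to an unknown extent.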
